A study of Mus musculus with 36 samples.

Results

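The effect of losing 1 functional copy of Brd1 in the absence of any drug was measured in the anterior cingulate cortex (aCC) of mice given saline. It rests on 17 of the 36 RNA sequencing libraries of the series, namely all 9 libraries labelled Brd1+/- vehicle and all 8 labelled WT vehicle, chosen by those labels alone. Both groups were female mice of the strain labelled C57BL/6NTac-Brd1, aged 8 to 11 weeks, and both received vehicle injections on 2 consecutive days. They also shared a tail suspension test on day 1 and an open field and a forced swim test on day 2, so neither group is untouched tissue. WT mice were matched to Brd1+/- mice by litter. In the Brd1+/- mice 1 allele lacks exons 3 to 5, a segment that the construct placed between loxP sites; no Cre limited to a cell type or a time is named for it, so effects of development and of the adult state cannot be told apart. The tissue was a frozen punch of 1 mm from the right aCC, which holds all cell types of the cortex, and a gene that is lower in such a sample may come from fewer cells of a type or from less RNA per cell, which cannot be told apart. The other 19 libraries are from 10 WT and 9 Brd1+/- mice given the tricyclic antidepressant imipramine (IMN) at 10 mg/kg, and are used below only to look at the same genotype contrast in other mice.

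BRD1, also called BRPF2, is a chromatin scaffold protein. It reads histone marks through its bromodomain, PHD fingers and PWWP domain and holds together complexes that acetylate histone H3, in which the catalytic subunit is KAT7 or 1 of the related enzymes KAT6A and KAT6B, accompanied by the small subunits ING4 or ING5 and MEAF6. BRPF1 and BRPF3 are its paralogs, and the JADE proteins are alternative scaffolds that direct KAT7 mainly to histone H4. The aCC is a prefrontal area that takes part in mood, motivation and the control of emotional responses.

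The targeted segment covers exons 3 to 5 of Brd1 (ENSMUSG00000022387), a gene on the minus strand of chromosome 15 at chr15:88687034-88734233 (GRCm38). In the transcript Brd1-203, which has 13 exons and 5152 bases, these are the exons at chr15:88716906-88717062, chr15:88713886-88714017 and chr15:88713298-88713426. They are shown because their loss defines the genotype: the 157, 132 and 129 bases are all coding and sum to 418, or 8.11% of the transcript, and 418 leaves a remainder of 1 when divided by 3, so a transcript joining exon 2 to exon 6 would be out of frame. The sequences are those of the GENCODE vM21 transcript, 5′ to 3′ on the gene's strand.
Brd1 exon 3: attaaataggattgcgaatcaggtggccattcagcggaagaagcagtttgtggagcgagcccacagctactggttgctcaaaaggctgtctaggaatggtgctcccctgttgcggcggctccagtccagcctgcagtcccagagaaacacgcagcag
Brd1 exon 4: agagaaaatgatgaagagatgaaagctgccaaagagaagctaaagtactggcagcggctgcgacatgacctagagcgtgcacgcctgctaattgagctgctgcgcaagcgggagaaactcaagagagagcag
Brd1 exon 5: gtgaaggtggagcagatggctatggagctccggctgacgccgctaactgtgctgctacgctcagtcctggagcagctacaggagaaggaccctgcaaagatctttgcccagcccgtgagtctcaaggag

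The deposited values are TPM per gene, a measure of transcript abundance scaled for transcript length and for the total of each library. They include reads from all other exons, so a transcript of the targeted allele that lacks exons 3 to 5 would still count toward Brd1. Whether such transcripts were present was not tested.

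Before the comparison, 3 of the 17 libraries stood apart in their make-up. In Brd1+/- vehicle replicate 6, 135 genes of at least 5 TPM were at over 2 times the highest of the other 16 libraries, whereas the others had 0 to 58 such genes with a median of 4. WT vehicle replicate 1 had the 58, and in it 45 genes were below 50% of the lowest of the others, among them the upper-layer marker Cux2 at 9.86 TPM against at least 53.8 TPM and Calb1 at 18.04 against at least 53.5 TPM. Brd1+/- vehicle replicate 7 had 86 genes below that level, and its long transcripts were low relative to short ones, by 0.65 on the log2 scale, where the other libraries ranged from -0.17 to 0.33. The results are therefore given for all 17 libraries and without replicate 6, and counts also without replicate 1 of the WT or all 3. Otherwise the libraries resembled each other, with 24685 to 25517 genes above 0 among those tested and a median correlation with the other libraries of 0.966 to 0.979.

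Brd1 itself served as the check of the labels. It ranged from 22.6 to 31.9 TPM with a median of 26.1 in WT mice and from 13.8 to 20.9 TPM with a median of 16 in Brd1+/- mice. The groups did not overlap, and replicate 6, with 19.6 TPM or 74.3% of the WT mean, was on the Brd1+/- side. Single Brd1+/- libraries held between 52.3% and 79.4% of the WT mean, with replicates 3, 6 and 9 between 74.3% and 79.4% and the other 6 between 52.3% and 62.4%. The fold change on the log2(TPM + 0.5) scale, used throughout, was -0.64 (SE 0.0948, 95% interval -0.84 to -0.44), which is 64.2% of WT with an interval of 56.0 to 73.7%. With limma this missed the threshold of 0.05 after adjustment over all genes (adjusted p = 0.062), and without replicate 6 it passed (-0.67, SE 0.096, adjusted p = 0.0427), as it also did without replicate 3 (adjusted p = 0.025) or 9 (0.0364). In an exact permutation test over the 24310 ways of dividing the libraries, Brd1 had the smallest p that this design allows, 8.23e-05, two-sided. That p becomes 1 after adjustment, since with 25572 genes a single gene at the smallest p cannot pass.

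**Figure D1:**
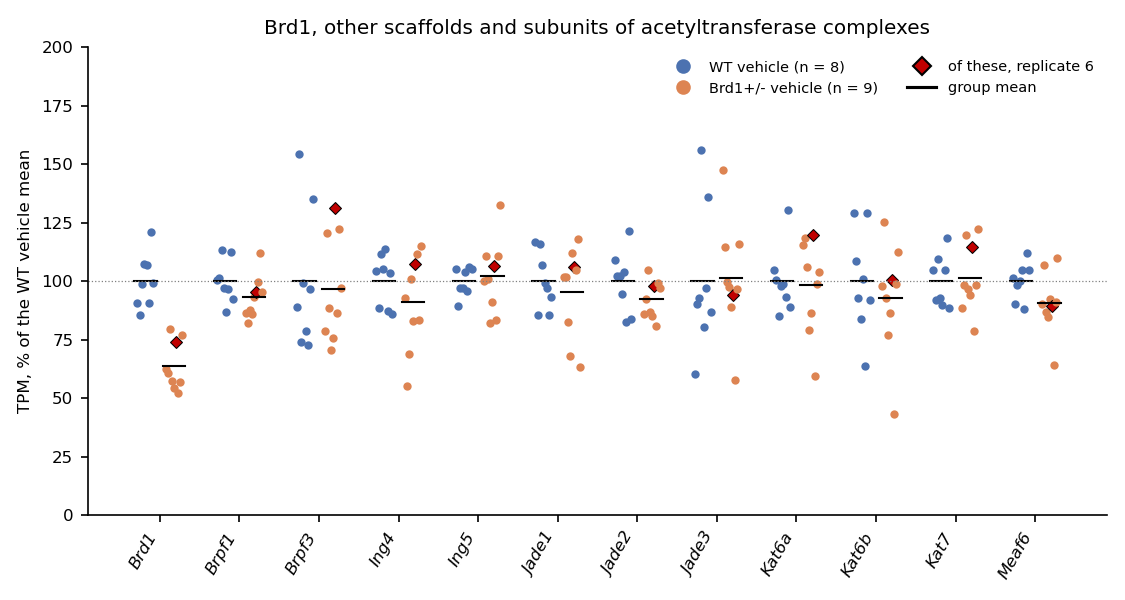
TPM of Brd1 and of the 11 other scaffolds and subunits of its list in each vehicle library as a percentage of the WT vehicle mean of that gene, with WT in blue (n = 8), Brd1+/- in orange (n = 9), replicate 6 as a red diamond and the group means as bars. The Brd1+/- points of Brd1 all lie below its WT points, whereas those of each of the other 11 overlap with WT.

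Across the transcriptome, no gene other than Brd1 separated the groups. Of 25572 genes tested, 0 (0%) passed an adjusted p of 0.05 in limma. The exact permutation test also gave 0, but in it no gene can pass unless many share its smallest possible p of 8.23e-05. That 0 therefore adds nothing to the limma count. At an unadjusted p below 0.05 there were 959 genes (3.75%) by limma and 945 (3.7%) by permutation, fewer than the 1279 that an even spread of p-values would give. The 959 comprised 313 (1.22%) with higher and 646 (2.53%) with lower values in the Brd1+/- group. Below an unadjusted p of 0.01 there were 179 genes (0.7%), against 255.7 for an even spread, with 64 (0.25%) higher and 115 (0.45%) lower; by permutation there were 177 (0.692%). This split depended on the scaling, with 93 higher and 91 lower under median-ratio scaling and 101 and 81 under quantile normalization. Brd1 was the 1 gene (0.00391%) whose values did not overlap between the groups.

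Leaving out replicate 6 gave 2 genes (0.00782%) past the adjusted threshold, Brd1 and the small nuclear RNA gene Gm24646, 986 genes (3.86%) below an unadjusted 0.05, 682 of them lower (2.67%), and 155 genes (0.606%) below 0.01, of which 53 (0.207%) were higher and 102 (0.399%) lower. Of these, 112 were shared with the 179, which is 62.6% of the longer and 72.3% of the shorter list. Genes that did not overlap then numbered 4 (0.0156%), namely Brd1, Ppt2, Tmem68 and the long noncoding RNA gene Gm46392, which was listed at 0 in all WT libraries and reached only 0.21 TPM. Ppt2 encodes a lysosomal thioesterase and ranged from 38.2 to 49.2 TPM in WT mice and from 19.2 to 37.7 TPM in the 8 Brd1+/- libraries, with replicate 6 at 39.2 TPM.

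WT vehicle replicate 1 had more influence on these counts. Without it 383 genes were below 0.01, 129 of them among the 179. Without it and replicate 6, 357 genes (1.4%) were below 0.01, 102 of them shared, and 2 genes passed the adjusted threshold, Brd1 and the long noncoding RNA gene Gm26683. Without both and Brd1+/- replicate 7, the numbers were 546 genes (2.14%), 154 higher and 392 lower, with 95 shared, and 1 gene past the threshold, Gm26683, while Brd1 was at an adjusted p of 0.0668. Each of these counts below 0.01 was above the 255.7 of an even spread, unlike the 179 with all 17 libraries. Without the 3 libraries 2329 genes (9.11%) were below an unadjusted 0.05, against 1279 for an even spread. These sets of libraries were chosen after the values had been seen.

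The 179 genes held more genes of low level than the whole. Their mean was under 1 TPM for 48.0%, as against 31.0% of all genes tested, and 53.1% were protein coding as against 60.8%. The precision behind the low counts is given by the intervals: among 17653 genes averaging 1 TPM or more, 82.0% had a 95% interval that lay within 1.5-fold in either direction and 94.7% within 2-fold, and at 10 TPM or more 92.6% of 10048 lay within 1.5-fold.

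**Figure D2:**
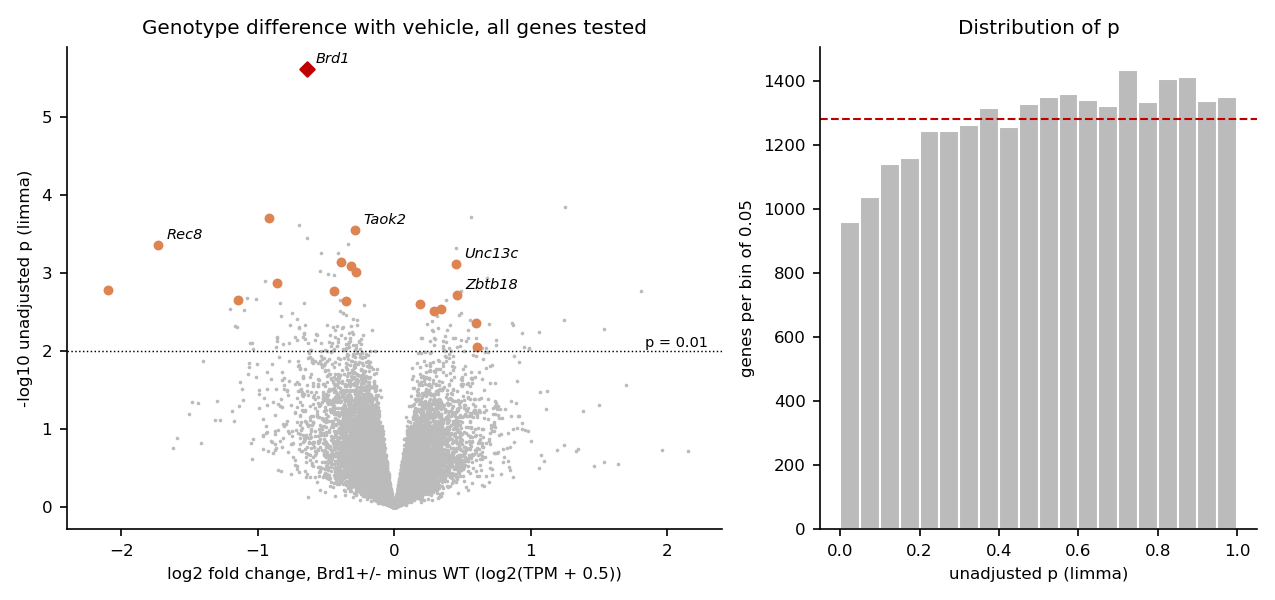
Left, the log2 fold change (Brd1+/- minus WT, vehicle) of each of 25572 genes against -log10 of the unadjusted limma p over all 17 libraries, with Brd1 as a red diamond and the genes chosen for naming in orange. Right, the number of genes per 0.05 of p, with a dashed line at the 1279 of an even spread; the lowest bin holds 959 genes.

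The list of BRPF acetyltransferase complexes holds BRD1 with its paralogs and alternative scaffolds and the subunits they share. None of its other 11 genes was below an unadjusted p of 0.05, their groups overlapped, and their intervals together ran from -0.49 to 0.39 on the log2 scale. Of the 12 genes including Brd1, 3 were above 0 and 9 below, with a median of -0.09 (-0.11 without replicate 6), where all genes tested had a median of -0.02 (-0.03) and 43.7% above 0. Among the scaffolds, Brpf1 ranged from 16.7 to 21.8 TPM (median 19.0) in WT and from 15.8 to 21.5 TPM (median 17.9) in Brd1+/- mice, with a fold change of -0.10 (interval -0.25 to 0.05). Brpf3 differed by -0.03 (-0.37 to 0.31). The paralogs were therefore not detectably higher where Brd1 was lower, and for Brpf1 the interval reached up to 103.5% of the WT level. The alternative scaffolds Jade1, Jade2 and Jade3 differed by -0.09, -0.11 and 0.03.

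The catalytic subunits gave the same picture. Kat6a ranged from 13.03 to 19.96 TPM (median 15.1) in WT and from 9.12 to 18.3 TPM (median 15.9) in Brd1+/- mice and differed by -0.04 (-0.30 to 0.22). Kat6b differed by -0.12 (-0.49 to 0.24) and Kat7, the main partner of BRD1, by 0.01 (-0.17 to 0.20). Kat6b, with the widest of these intervals, had 1 far value, 11.8 TPM in Brd1+/- replicate 7, the library with low long transcripts. Of the accessory subunits, Ing4 differed by -0.16 (-0.08 without Brd1+/- replicate 2), Ing5 by 0.02 and Meaf6 by -0.15 (-0.33 to 0.03, p = 0.0924; -0.09 without replicate 7). Signs of differences this small changed with the libraries used for Brpf3, Jade3, Kat6a, Kat6b, Kat7 and Ing5.

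Genes near Brd1 share its chromosome segment with the targeted allele. The window reached 1 Mb to either side and held the starts of 47 genes, of which 38 could be tested. All 38 start at higher coordinates than Brd1, by 64.63 to 895.5 kb, so the side of lower coordinates was not examined. Fold changes were above 0 for 12 and below 0 for 26, with a median of -0.08. Among all genes tested, 43.7% were above 0 and the median was -0.02. At an unadjusted p below 0.05 there were 2 of the 38. Panx2, a large-pore channel gene, had -0.19 (p = 0.0181). Cpt1b, a carnitine palmitoyltransferase gene, had 0.31 (p = 0.0496) at no more than 0.62 TPM. The 5.26% is set beside 3.75% of all genes, 0 were below 0.01, and none passed adjustment (lowest adjusted p = 0.9998).

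Besides Brd1, 18 genes were named by rank among those below an unadjusted p of 0.01 with and without replicate 6. Their adjusted p in limma was 0.9998 in each case with 17 libraries and 0.795 to 0.998 without replicate 6, so none of them passed the test. With all 17 libraries each had groups that overlapped, while without replicate 6 those of Tmem68 did not. The candidates were 7 higher and 36 lower, with Brd1 among the lower. All 7 higher ones were named, and of the lower ones the first 11 by p after Brd1.

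Among those with higher values, Unc13c encodes a member of the MUNC13 family, which primes synaptic vesicles for release. It lies at chr9:73479422-73968966 (ENSMUSG00000062151) and ranged from 3.38 to 5.01 TPM (median 3.98) in WT and from 4.54 to 7.77 TPM (median 5.43) in Brd1+/- mice. Replicate 6 was the highest and all 9 Brd1+/- libraries were above the WT mean, and the fold change was 0.45 (SE 0.113, p = 0.000771). Without replicate 6 it was 0.40 (p = 0.00142).

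Zbtb18, a transcriptional repressor needed for the development of cortical projection neurons, lies at chr1:177442351-177450764 (ENSMUSG00000063659). It ranged from 106 to 144 TPM (median 118) in WT and from 106 to 205 TPM (median 176) in Brd1+/- mice. The Brd1+/- values were split, since 7 libraries had 171 to 205 TPM, above all WT values, while replicates 6 and 9 had 110 and 106 TPM. The fold change was 0.46 (SE 0.128, p = 0.00194), and 0.54 without replicate 6 (p = 0.000183, adjusted p = 0.806). In the IMN groups both genotypes spread over this whole range, from 91.6 to 196 TPM in WT and from 114 to 218 TPM in Brd1+/- mice.

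Tmem68, an acyltransferase gene, ranged from 19.9 to 22.8 TPM (median 22.2) in WT and from 22.3 to 27.5 TPM (median 25.2) in Brd1+/- mice, with replicate 6 the lowest of these. Its difference was small and tight, at 0.19 (SE 0.0539). Rpa2, a subunit of the single-stranded DNA binding protein RPA, was at 4.69 to 8.09 TPM in WT and 6.81 to 9.03 TPM in Brd1+/- mice (0.34, SE 0.101), and Tmem143, which encodes a mitochondrial membrane protein, at 12.8 to 17.98 and 15.7 to 24.1 TPM (0.29, SE 0.0852). Tmprss7, a membrane serine protease gene, was expressed at a low level in both (0.532 to 2.06 and 1.03 to 3.01 TPM, 0.60). The remaining one was Mir7240, a microRNA locus inside Mast3 (0.61; host and small RNA cannot be told apart).

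Among those with lower values, Taok2 encodes a kinase of the MAP kinase cascade that acts on the dendritic cytoskeleton, and lies at chr7:126865678-126884703 (ENSMUSG00000059981). It ranged from 80.0 to 101.3 TPM (median 89.0) in WT and from 63.9 to 84.7 TPM (median 70.2) in Brd1+/- mice. All 9 Brd1+/- values were below the WT mean, replicate 6 was the highest of them, and the others reached 80.4 TPM, so only a narrow band was shared. The fold change was -0.29 (SE 0.0644, p = 0.000285), or 81.9% of WT, and -0.32 without replicate 6 (p = 9.32e-05, adjusted p = 0.795).

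Rec8, a cohesin subunit of meiosis, lies at chr14:55618037-55625395 and ranged from 1.83 to 11.1 TPM (median 2.65) in WT and from 0 to 2.71 TPM (median 0.415) in Brd1+/- mice. The WT values were spread widely, with 11.1 and 8.27 TPM in replicates 4 and 7, and the fold change was -1.73 (SE 0.405, p = 0.000441). Pcgf2 (MEL18), a subunit of Polycomb repressive complex 1, was at 45.0 to 70.2 TPM (median 58.4) in WT and at 33.2 to 54.8 TPM (median 40.4) in Brd1+/- mice, a difference of -0.44 (SE 0.12). Plat, the tissue plasminogen activator, which turns plasminogen into the protease plasmin, was at 20.4 to 28.7 and 17.4 to 22.5 TPM (-0.32, SE 0.0797), with replicate 6 at 19.6 TPM in the middle of its group.

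Of the rest, Osbpl7 (a lipid transfer protein) differed by -0.39, Fam129b (an adherens junction protein) by -0.28, Adamts10 (a secreted protease of microfibrils) by -0.35 and Dnhd1 (a dynein heavy chain domain protein of low level) by -0.85. The 3 remaining loci lie in host genes, so that small RNA and host transcript cannot be told apart in these values. Mir7220, inside Camk2a, was at 11.1 to 23.3 TPM (median 14.7) in WT and 3.51 to 11.3 TPM (median 7.91) in Brd1+/- mice (-0.91, SE 0.197, p = 0.000198). Mir5117, annotated as a snoRNA in Gas5, differed by -2.10 and Mir7082, in Raver1, by -1.15. In Mir5117 the values fell into a high and a low set rather than around a mean, from 4.74 to 14.7 TPM in 6 WT libraries and 8.10 TPM in Brd1+/- replicate 8, and below 1 TPM in the other 10.

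**Figure D3:**
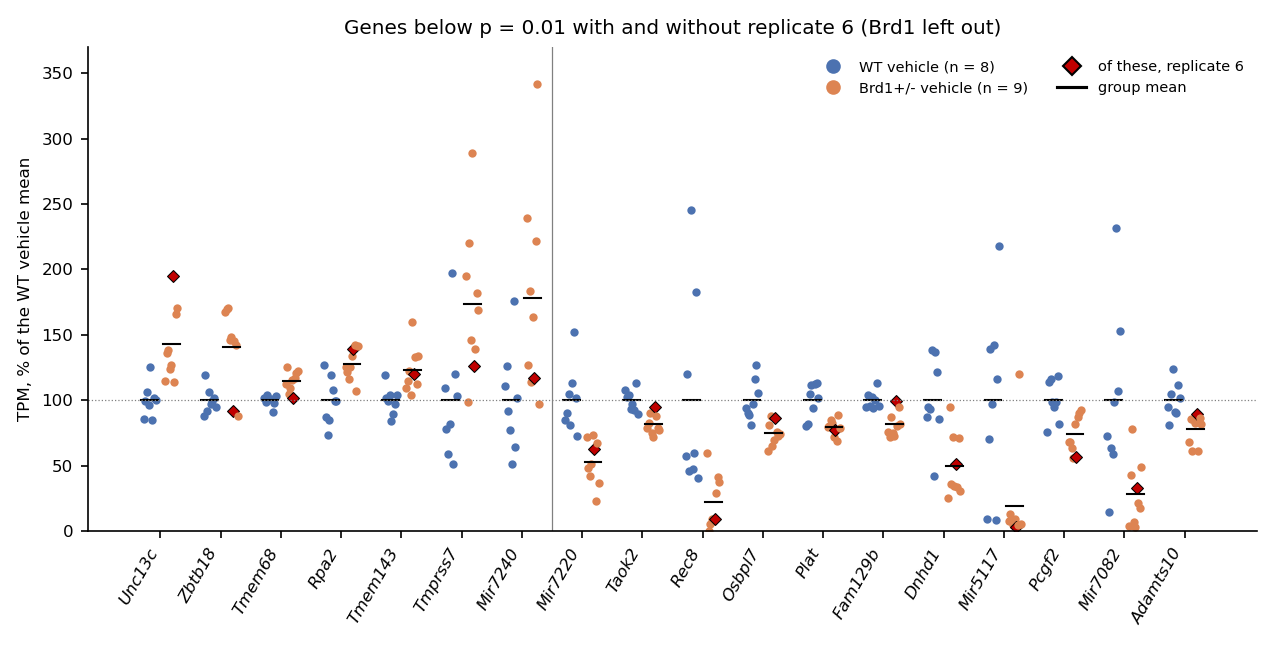
TPM of the 18 genes other than Brd1 that were named by rank, in each vehicle library as a percentage of the WT vehicle mean, with the 7 higher genes left of the line and the 11 lower genes right of it; WT is blue (n = 8), Brd1+/- orange (n = 9), replicate 6 a red diamond and bars are group means. The groups overlap for each gene, and the spread is narrow for Tmem68 and Taok2 and wide for Rec8, Mir5117 and Mir7082.

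The 3 genes of lowest p after Brd1 were Mir7220 and 2 noncoding genes of very low level. Gm24646, a small nuclear RNA gene inside Rnf214 on chromosome 9, was listed at 0 in 7 of 8 WT libraries and in replicate 6, and reached 0.56 to 2.81 TPM in the other 8 Brd1+/- libraries. Its fold change was 1.25, and 1.43 without replicate 6, when it passed the threshold (adjusted p = 0.0427). Under IMN, 5 WT and 3 Brd1+/- libraries had a value above 0. C530044C16Rik, a long noncoding RNA gene, was at 0 to 0.25 TPM in WT and 0.192 to 0.722 TPM in Brd1+/- mice (0.56).

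Gm26683, a long noncoding RNA gene at chr1:91297203-91304405 overlapping Scly, shows how far such loci depend on the libraries chosen. It was listed at 0 in 7 of 8 WT libraries, with 2.60 TPM in WT replicate 1, and was above 0 in 7 of 9 Brd1+/- libraries, with 0 in replicates 6 and 7. With all 17 libraries the fold change was 1.81 (SE 0.492, adjusted p = 0.9998). The 3 libraries that stood apart are the very ones that went against the split, and without them it was 2.75 (adjusted p = 1.23e-08). Under IMN, 4 WT and 6 Brd1+/- libraries had a value above 0.

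Drd2, the dopamine D2 receptor, ranged from 0.155 to 1.48 TPM (median 0.604) in WT and from 0.347 to 34.7 TPM (median 0.846) in Brd1+/- mice. The 34.7 TPM was replicate 6 and the next value was 1.96 TPM, so the fold change of 0.76 (p = 0.194) became 0.23 without it (p = 0.366). Slc6a3, the dopamine transporter, was listed at 0 in all vehicle libraries but WT replicate 4, with 0.0588 TPM. Slc25a35, a mitochondrial carrier, differed by -0.02, and by 0.01 without replicate 6.

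Kcnd2, which encodes the pore of the A-type potassium channel Kv4.2, was among the 179 genes. It ranged from 26.0 to 35.1 TPM (median 31.7) in WT and from 31.7 to 39.6 TPM (median 36.5) in Brd1+/- mice, where each library was above the WT mean. The fold change was 0.20 (interval 0.06 to 0.33, p = 0.00679, adjusted p = 0.9998) and 0.18 without replicate 6 (p = 0.0141). Its auxiliary subunit Kcnip2 (KChIP2), which sets channel density and inactivation, was lower by the same measure, -0.23 (p = 0.022), with 66.6 to 97.1 TPM in WT and 53.0 to 77.9 TPM in Brd1+/- mice. The other 7 of the 9 genes of Kv4 channels and their subunits were above 0.05, and the list's median was -0.02.

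The 20 pathway lists held 423 distinct genes that could be tested, and 371 of these had intervals within 1.5-fold. At an unadjusted p below 0.05 there were 4 higher and 4 lower, or 1.89% against 3.75% of all genes, and below 0.01 there were 3, or 0.709% against 0.7%. The 3 were Brd1, Kcnd2 and Hdac11, and none of the 423 passed adjustment, while without replicate 6 Brd1 did and 10 were below 0.05.

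Among 33 other histone acetylation genes, 14 were above 0, with a median of -0.01. Hdac11, the class IV deacetylase, which is abundant in brain, was the 1 gene below 0.05. It ranged from 76.0 to 137 TPM (median 107) in WT and from 118 to 164 TPM (median 132) in Brd1+/- mice, with each Brd1+/- library above the WT mean, and the fold change was 0.29 (SE 0.0996, p = 0.00841, and 0.0161 without replicate 6). It was 0.22 without WT replicate 1, which had the lowest value, 0.21 without that library and replicate 6, and 0.16 without all 3 libraries that stood apart. Hdac4 differed by -0.24 (p = 0.105; -0.15 without WT replicate 7).

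The transmitter systems follow in turn. Of 17 dopamine genes tested 12 were above 0, and the median of 0.12 became 0.03 without replicate 6. Slc18a2, the vesicular monoamine transporter, had 0.16 (0.09 without replicate 6). Of 14 serotonin genes 9 were above 0, with a median of 0.11 (0.10), while Slc6a4 and Htr3b were at 0. Htr7, a receptor coupled to cAMP, was at 2.35 to 5.02 TPM in WT and 4.23 to 11.5 TPM in Brd1+/- mice (0.50, p = 0.0214), with the 11.5 TPM in replicate 7, and Htr1a had 0.18 (p = 0.0755). Of the adrenergic receptors Adra1a had 0.19 (0.34 without Brd1+/- replicate 7 and 0.12 without replicate 8) and Adra2c -0.14.

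The 27 cAMP, PKA and CREB genes had a median of -0.03, with Crem at -0.35 (p = 0.0695) and Adcy6 at -0.14. The 20 GABA genes had a median of 0.04, where the synthesizing enzyme Gad2 had 0.15 (0.09 without replicate 6) and the receptor subunit Gabbr1 -0.10. The 22 glutamate receptor genes had a median of -0.01, with Grin2d at -0.16 (-0.09 without WT replicate 7) and Grik5 at -0.13 (p = 0.0764, and 0.0359 without replicate 6). The vesicle release list had a median of -0.01, with Rims2 at 0.12 and Slc17a6, a vesicular glutamate transporter, at 0.55. Slc17a6 had 20.2 TPM in Brd1+/- replicate 7 and at most 7.99 TPM in the other vehicle libraries, and was at 0.33 without replicate 7. Under IMN it reached 22.97 TPM in WT replicate 3 and 51.3 TPM in Brd1+/- replicate 6.

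Activity and stress genes varied widely between mice. Of 17 immediate-early genes 7 were above 0 (median -0.03), and Egr3, at 111 to 267 TPM in WT and 79.7 to 208 TPM in Brd1+/- mice, had -0.39 (p = 0.1), while Egr1 had 0.14. The 8 neurotrophin genes tested had a median of -0.03, with the GDNF receptor Gfra1 at 0.17 (0.10 without replicate 6) and its partner Ret at -0.08. The glucocorticoid list had -0.03, with the receptor Nr3c1 at 0.20 and its target Cdkn1a at -0.30 (-0.46 without WT replicate 1). In the unfolded protein response the sensor Ern1 had -0.25 (-0.16 without Brd1+/- replicate 7) and the chaperone Dnajb9 0.10, with a list median of -0.01.

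Metabolic and housekeeping lists had small medians, though their sums varied between libraries. Of 24 sterol genes 17 were above 0 with a median of 0.03, Fdft1 at 0.13 and Scap at -0.14. Complex I subunits of the nucleus had a median of 0.01, with Ndufs1 at 0.14 and Ndufv3 at -0.17 (p = 0.0545). All 13 mitochondrially encoded proteins were above 0, with a median of 0.03 and mt-Nd2 and mt-Nd3 at 0.10 and 0.08, but such transcripts are processed from shared precursors and are not independent. Of 77 cytoplasmic ribosomal protein genes, 63 were below 0 and 14 (18.2%) above, where 43.7% of all genes tested were above 0. Their median was -0.05 (-0.07 without replicate 6), as compared with -0.02 for all genes. Their sum was 10200 to 13070 TPM in WT and 8950 to 15020 TPM in the Brd1+/- libraries without replicate 6. The 15020 TPM was in replicate 7, the library with low long transcripts. That library also had the highest complex I sum, 5318 TPM against 3821 to 4429 TPM in WT. Whether the ribosomal protein genes vary independently of each other was not tested. Rpl41 and Rpl13 were the 2 of 77 below 0.05, beside 3.75% of all genes, with -0.40 (p = 0.0218) and -0.21 (p = 0.0233). Both have processed pseudogenes whose reads are hard to tell apart. Rpl41 had 1 far value, 91.8 TPM in Brd1+/- replicate 9, where the other Brd1+/- vehicle libraries had 179.3 to 269.7 TPM. Interferon-stimulated genes had a median of 0.03 (Ifit3 0.23) and clock genes of 0.01, where Nr1d2 (REV-ERB beta) had 0.16 (p = 0.0433) and Arntl (BMAL1) -0.18.

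**Figure D4:**
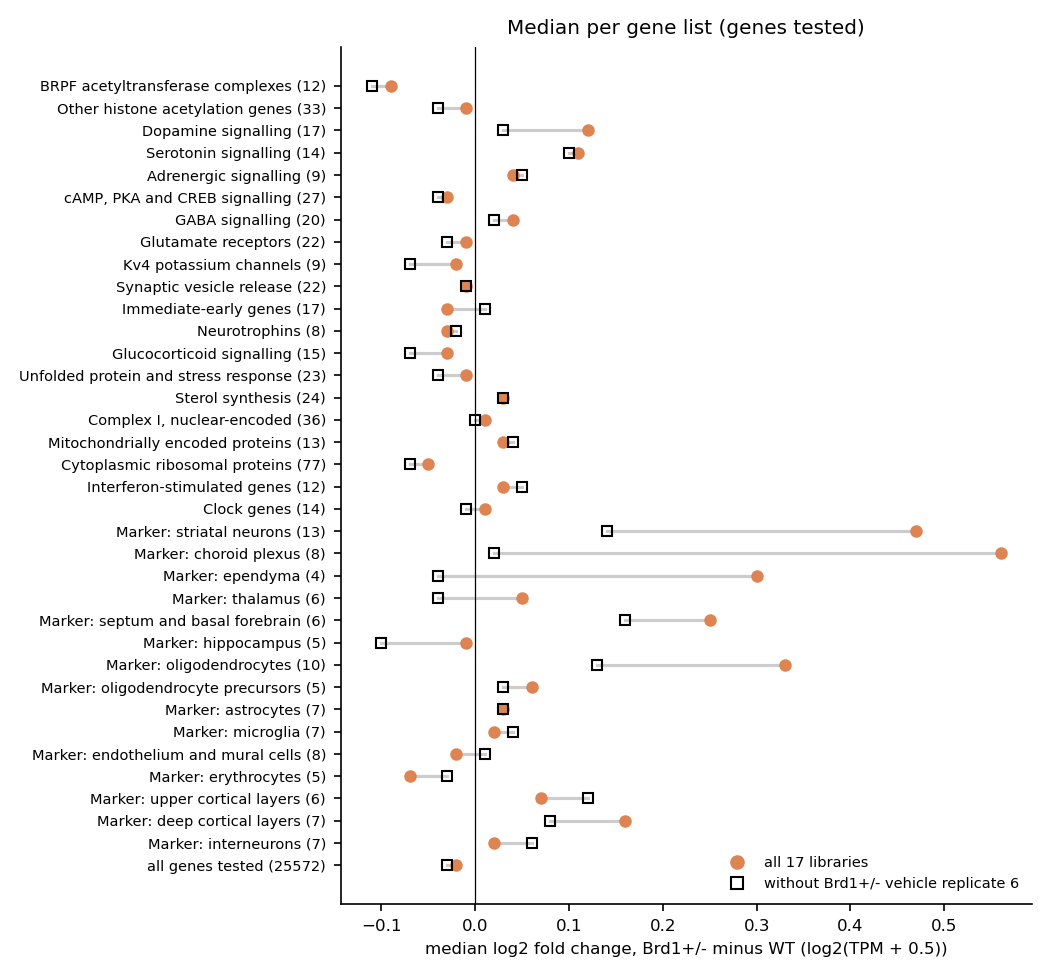
Median log2 fold change (Brd1+/- minus WT, vehicle) of the tested genes of each list, with their number in brackets, over all 17 libraries (orange) and without Brd1+/- replicate 6 (open squares). The pathway medians lie between -0.11 and 0.12, and the marker lists for striatal neurons, choroid plexus and ependyma move furthest when replicate 6 is left out.

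Marker genes of cell types and of neighbouring regions were set beside these results. Summed over 13 striatal markers, replicate 6 held 1658 TPM, the other Brd1+/- libraries 209 to 290.3 TPM and WT libraries 174 to 354.1 TPM. Summed over 12 choroid plexus markers, it held 3973 TPM and the others 1.19 to 7.37 TPM, and over 6 ependymal markers 111 TPM against 4.17 to 14.3 TPM. All 13, 12 and 6 members were highest in replicate 6. Ttr, the transthyretin gene of the choroid plexus, had 3806 TPM against at most 4.71, and Folr1, Ccdc153, Tmem212, Prr32, 1700001C02Rik, Slc4a5 and Sntn, of 5.21 to 32.5 TPM there, were listed at 0 in each of the other 16. Otx2, Clic6, Igfbpl1 and Fam216b, at 12.7, 20.1, 6.39 and 5.46 TPM, were next by their ratio to the other libraries.

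With replicate 6 the medians of the lists were 0.47 for striatal neurons, 0.56 for choroid plexus, 0.30 for ependyma, 0.33 for oligodendrocytes and 0.25 for septum and basal forebrain. Without it they were 0.14, 0.02, -0.04, 0.13 and 0.16. None of the markers passed adjustment either way. Below an unadjusted 0.05 were 3 of 6 septal markers with replicate 6 and 0 without, 0 of 13 striatal markers with it and 2 without (Gpr6 and Six3, both higher), and 0 of 8 choroid plexus markers with it and 1 without (Aqp1, lower). Over all genes the shares were 3.75% and 3.86%. Drd2 is itself a striatal marker, and Kcnd2, Hdac11 and Taok2 were at 0.18, 0.28 and -0.32 without replicate 6.

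Several other lists were spread widely between mice. Oligodendrocyte markers summed to 191.5 to 2841 TPM in WT, the highest in replicate 1, and to 239.9 to 1799 TPM in Brd1+/- mice, the highest in replicate 6. Upper-layer markers were lowest in WT replicate 1 (236 TPM, the others at least 358), which also had the highest sum of deep-layer markers (336 TPM) and the lowest of hippocampal ones (15.1 TPM). In Brd1+/- replicate 7 the upper-layer sum was highest (716 TPM) and the deep-layer sum lowest (103 TPM). That library also had the highest sums of interneuron markers (1565 TPM) and thalamic markers (56.05 TPM, with replicate 6 at 55.04 TPM). Deep-layer markers had a median of 0.16 (0.08 without replicate 6) and upper-layer markers of 0.07 (0.12). Astrocyte, microglial, endothelial and interneuron lists had medians of 0.03, 0.02, -0.02 and 0.02, oligodendrocyte precursors 0.06, thalamus 0.05, hippocampus -0.01 and erythrocytes -0.07. The part of these differences in the single genes above was not tested except by leaving libraries out and by fitting striatal and oligodendrocyte scores as covariates, where Brd1 differed by -0.68.

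**Figure D5:**
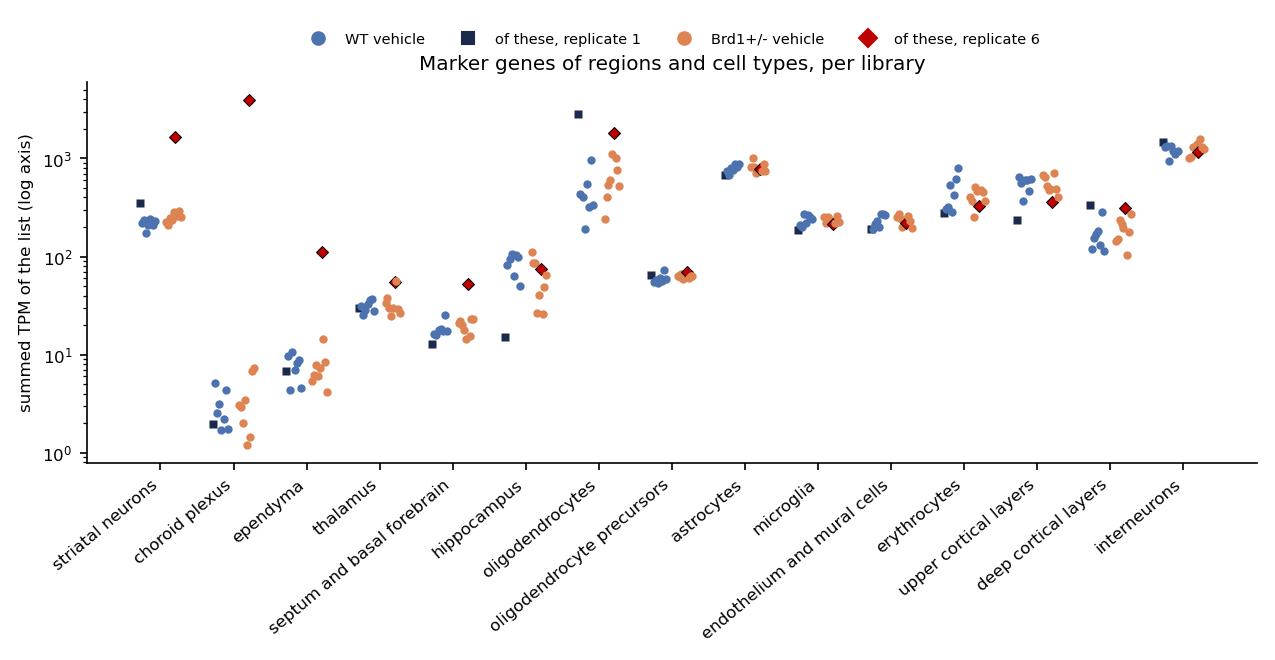
Summed TPM of each marker list in each vehicle library on a log axis, with WT in blue and its replicate 1 as a dark square, and Brd1+/- in orange and its replicate 6 as a red diamond. Replicate 6 lies far above all others for choroid plexus (3973 TPM), striatal neurons (1658 TPM) and ependyma, and WT replicate 1 is highest for oligodendrocytes and lowest for hippocampus and upper layers.

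The same genotype contrast in mice given IMN uses no library of the vehicle groups. It gave 0 genes (0%) past the adjusted threshold, 826 (3.23%) below an unadjusted 0.05, with 505 (1.97%) higher and 321 (1.26%) lower, and 157 (0.614%) below 0.01, of which 97 (0.379%) were higher and 60 (0.235%) lower. Of the 179 genes below 0.01 with vehicle, 88 (49.2%) had the same direction under IMN, as did 50.8% of all genes tested. Below an unadjusted 0.05 in limma under IMN were 16 of the 179, Brd1 among them, beside the 3.23% of all genes. Of these 16, 12 had the same direction. Among the 18 genes named by rank 9 had the same direction, and 0 were below 0.05 there (lowest p = 0.137). The difference between the contrasts, tested as an interaction in limma, was below an unadjusted 0.05 for 818 of all genes (3.2%) and for 11 of the 18, which had been chosen on the vehicle contrast and so tend to be larger there, and none passed adjustment (adjusted p = 0.9998 for each). Taok2 had the lowest, with -0.29 under vehicle and 0.05 under IMN (interaction p = 0.0017). Kcnd2 had 0.03 under IMN, and Slc25a35 0.29 (p = 0.0126).

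Brd1 was lower in both contrasts, by -0.45 under IMN (limma p = 6.87e-05, adjusted p = 0.882). Under IMN its groups overlapped, at 17.9 to 27.8 TPM in WT and 13.5 to 19.4 TPM in Brd1+/- mice. The difference between the contrasts was 0.18 (limma interaction p = 0.169). In all, 7 of the 179 genes were below 0.01 in both, a level that 157 of all genes tested (0.614%) met under IMN. The 7 were picked out after their values were seen, and 6 of them had the same direction. Besides Brd1 these were Hdac11 (0.29 with vehicle and 0.41 under IMN), the protocadherin gene Pcdhb5 (0.36 and 0.34), Crybb1, a crystallin gene also expressed by microglia (-0.57 and -0.76), 4930447C04Rik (-0.51 and -0.33) and the pseudogene Gm48858 (0.49 and 0.58). Crybb1 was at 2.26 to 6.07 TPM in WT and 2.01 to 3.92 TPM in Brd1+/- vehicle mice, and the microglial markers had a median of 0.02. The one with opposite directions was the pseudogene Rps10-ps4, at no more than 0.81 TPM. None of them except Brd1, without replicate 6, passed adjustment.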

How the data were processed

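RNA from aCC punches, 1 library per mouse, was sequenced and the authors deposited TPM per gene. According to the submitters' notes and the study's methods, reads were trimmed, aligned to GRCm38 with HISAT2 2.1.0 and assembled with StringTie 1.3.4; handling of strand and of reads with several matches is not given in the sources used here. The study tested counts; the deposited table holds TPM, so limma 3.58.1 (R 4.3.3, trend) was fitted to log2(TPM + 0.5) instead. The study gives a minimum number of reads per library, but TPM do not carry each library's depth, so no counting intervals are given. The pseudocount understates fold changes of low genes. Of 52636 genes, 52489 had a symbol in GENCODE vM21, which has the same build, and 147 an identifier only; 25572 reached 0.1 TPM in 8 or more of 36 libraries and were tested.

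Groups came from the labels, and p-values were adjusted by Benjamini-Hochberg over all genes tested. The interaction with treatment was fitted over all 36 libraries, and the exact permutation test ran over all 24310 arrangements (Python 3.11.15, numpy 2.4.6, scipy 1.17.1, pandas 2.3.3, matplotlib 3.10.9). Methods were tested on simulated data. Named were Brd1, Drd2, Kcnd2, Slc25a35 and Slc6a3, the BRPF complex genes, up to 12 higher and 12 lower annotated genes of at least 1 TPM on average below an unadjusted p of 0.01 with and without replicate 6 (Brd1 included), up to 2 genes per list (1 of them is not reported here), 12 leading genes of replicate 6 and the 3 genes of lowest p after Brd1. Members, lists and rules were chosen with earlier results of these data known. Alternatives covered pseudocounts, filters, scaling, array weights, covariates, a replicate block and leaving libraries out.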

Additional observations from a re-analysis of the deposited data

Results flagged for a closer look

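A value is given here when a library lay further from the nearest library of its group than expected for the group's range. For normally distributed values chance alone gives this in about 1 of 20 groups. Whether TPM and their sums follow that distribution was not tested, so the rate is only a guide. Of 102 such checks, over genes and marker lists in the vehicle groups, 14 gave a value, and 5 of the 14 were in Brd1+/- vehicle replicate 6. That library was singled out beforehand for its high striatal and choroid plexus genes, so those 5 are a description and no test. In that library Drd2 was at 34.7 TPM, where the other 8 ranged from 0.347 to 1.96 TPM. Its striatal markers summed to 1658 TPM against 209 to 290.3 TPM, choroid plexus markers to 3973 TPM against 1.19 to 7.37 TPM, ependymal markers to 111 TPM against 4.17 to 14.3 TPM, and markers of septum and basal forebrain to 52.8 TPM against 14.3 to 22.8 TPM.

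In Brd1+/- replicate 7, Kat6b was at 11.8 TPM against 20.9 to 34.1 TPM in the others, and Meaf6 at 51.8 TPM against 68.1 to 88.7 TPM. In Brd1+/- replicate 8, Mir5117 was at 8.10 TPM against 0.231 to 0.9 TPM. In WT replicate 1, striatal markers summed to 354.1 TPM against 174 to 240.2 TPM and hippocampal markers to 15.1 TPM against 49.8 to 105.8 TPM. In WT replicate 4, Slc6a3 was at 0.0588 TPM and Gm24646 at 0.574 TPM, both listed at 0 in the other WT libraries. With all others at 0, a single value above 0 always meets the rule. Dnhd1 was at 1.49 TPM in WT replicate 5 against 3.02 to 4.87 TPM, and Tmem68 at 19.9 TPM in WT replicate 6 against 21.4 to 22.8 TPM.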

How the results depend on the processing

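The direction of Brd1 held in all alternatives, with fold changes from -0.69 to -0.60, but its call did not. It passed an adjusted p of 0.05 with quantile normalization (-0.62), median-ratio scaling (-0.62), a filter at a mean of 1 TPM (-0.64), all 36 libraries in 1 fit (-0.64), the covariates (-0.68), without replicate 6 (-0.67) and without replicate 6 and WT replicate 1 (-0.69). With each of 17 libraries left out in turn it ranged from -0.68 to -0.60 (adjusted p 0.025 to 0.233) and passed without Brd1+/- replicate 3, 6 or 9.

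The count past the adjusted threshold, 0 with all libraries, was 1 with the mean filter, median-ratio scaling, quantile normalization, all 36 libraries and the covariates, 2 without replicate 6, 0 to 2 over single libraries left out, 2 without both libraries and 1 without 3. The count below 0.01, 179, was 98 (32 higher, 66 lower) with the mean filter, which tests fewer genes, 326 (134 and 192) with array weights, 143 to 383 with 1 library left out (higher 43 to 125, lower 87 to 258; the 383 is without WT replicate 1), 357 (101 and 256) without both and 546 (154 and 392) without 3. Scaling changed the split of 64 higher and 115 lower to 93 and 91 with median-ratio scaling and 101 and 81 with quantile normalization. Sets of several libraries were chosen after seeing the data. Where not stated, the cause was not tested.

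The labels do not give litters, so apart from the replicate block the fits were unpaired although the mice were matched by litter. Over 8 pairs of same-numbered libraries the correlations ran from -0.217 to 0.023, and 0 libraries correlated best with their own number. No pairing by number was seen, but litters may share too little in expression for this to tell whether numbers follow litters. The replicate block could use 16 libraries, without Brd1+/- replicate 9, for which 161 genes were below 0.01 and Brd1 had an adjusted p of 0.0364 with no block. With the block there were 126 (33 higher, 93 lower), 0 adjusted calls and -0.67 for Brd1 (adjusted p = 0.764).

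Of 77 named genes 9 changed sign under an alternative. Drd2 was at -0.02 with the covariates. Slc25a35 was at 0.00 with median-ratio scaling, 0.03 with array weights, 0.01 with the covariates and without replicate 6, -0.05 to 0.01 with 1 library left out, 0.02 without both and 0.05 without 3. With 1 library left out Brpf3 ranged from -0.09 to 0.06, Jade3 from -0.05 to 0.13 (-0.04 without both), Kat6a from -0.08 to 0.05, Kat6b from -0.21 to 0.00, Kat7 from -0.02 to 0.05, Ing5 from -0.03 to 0.05 and Ret from -0.19 to 0.05. Array weights gave 0.04 for Kat6a and 0.01 for Kat6b, the covariates -0.04 for Kat7 and -0.01 for Ing5, and the replicate block -0.02 for Kat7 and -0.03 for Ing5. Kat7 was at -0.01 without replicate 6 and -0.00 without both, and without 3 Kat6a was at 0.03 and Kat6b at 0.05. The medians of the lists stayed within the spread between libraries, yet some moved when replicate 6 was left out. That of choroid plexus went from 0.56 to 0.02 and that of striatal neurons from 0.47 to 0.14. The depth of each library cannot be read from TPM, so the limit it sets on low genes is not given.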
